A study of Danio rerio with 12 samples.

Results

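The 12 whole-liver libraries of the series were divided into 6 in which transcripts of the cholesterol synthesis pathway were high and 6 in which they were low. The members were chosen by a measured value, the mean log2 CPM of the cholesterol synthesis genes in each library (CPM, counts per 1000000 of a library): the upper 3 and the lower 3 libraries of each genotype were taken. The sterol-high group held glo2+/+ replicates 2, 5 and 6 and glo2-/- replicates 3, 4 and 5. The sterol-low group held glo2+/+ replicates 1, 3 and 4 and glo2-/- replicates 1, 2 and 6. All 12 of the 12 libraries entered, and no treatment separated the 2 groups. The glo2-/- fish carried a CRISPR knockout of glyoxalase 2, which hydrolyses S-D-lactoylglutathione in the detoxification of methylglyoxal, and the glo2+/+ fish were their wild type comparison. Every fish was an untrained adult of the Tg(fli1:EGFP) line, whose endothelial cells carry a green fluorescent protein. The labels give neither sex, feeding state nor time of collection. Nothing in the labels ties a library to 1 fish, and the p-values therefore speak for the spread among these 12 samples, part of which may be technical.

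Cholesterol is built from acetyl-CoA through mevalonate, farnesyl diphosphate, squalene and lanosterol. In vertebrate liver the genes of this route are switched together by SREBP2, a transcription factor held in the endoplasmic reticulum by SCAP and INSIG proteins while sterol is plentiful and released when it runs low. The same factor drives the LDL receptor, whereas oxysterols activate the LXR receptor and with it the genes of sterol export.

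The genes that made the sort are described without a test, since the libraries were placed by them. Of 24 matched genes 23 had enough counts, all 23 had a positive fitted log2 fold change, 18 exceeded 1, and the median was 1.53. Farnesyl diphosphate synthase, fdps, ran from 95.5 to 1165 CPM in the sterol-high group (median 382.1) and from 18.3 to 169.5 CPM in the sterol-low group (median 43.9). The entry enzyme hmgcs1 ran from 612.0 to 3773 CPM (median 1392) against 64.6 to 1092 CPM (median 193.6). Lanosterol synthase, lss, ran from 58.1 to 301.6 CPM (median 126.3) against 6.52 to 111.5 CPM (median 27.8). In each of these genes 4 sterol-high libraries lay above all sterol-low ones and the other sterol-high libraries did not. Of the later steps, CYP51A1, the lanosterol demethylase, had a log2 fold change of 1.53, msmo1, the sterol C4-methyl oxidase, of 1.08 and sc5d, the C5-desaturase, of 1.02, and ebp, the sterol isomerase, stood at 2.48.

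Not every gene of the route followed. The thiolase acat2 was at a log2 fold change of 0.20 and lbr, a sterol reductase that is also a receptor of the nuclear lamina, at 0.05. The squalene epoxidase SQLE (ENSDARG00000079946) was at 2.37, and a further SQLE copy (ENSDARG00000063319) had 4 counts summed over the sterol-high and 5 over the sterol-low libraries. Reads of such copies were divided by likelihood, so their split is uncertain.

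The sort score averaged 6.54 ± 0.76 in the sterol-high and 4.94 ± 0.90 in the sterol-low libraries (mean log2 CPM, SD, n = 6 each). The groups overlapped across the genotypes, because the sort was made within each. The sterol-low glo2-/- replicate 2 stood at 6.39, above the sterol-high glo2+/+ replicates 2 (5.64) and 5 (5.83). At the dividing line the last sterol-high and first sterol-low libraries stood 0.59 apart in glo2+/+ (replicate 2 at 5.64, replicate 1 at 5.05) and 0.09 apart in glo2-/- (replicate 3 at 6.47, replicate 2 at 6.39). The same 12 placements came from the 6 genes fdps, msmo1, sc5d, hmgcs1, lss and CYP51A1, from the deposited TPM, and from the list without fdps.

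**Figure D1:**
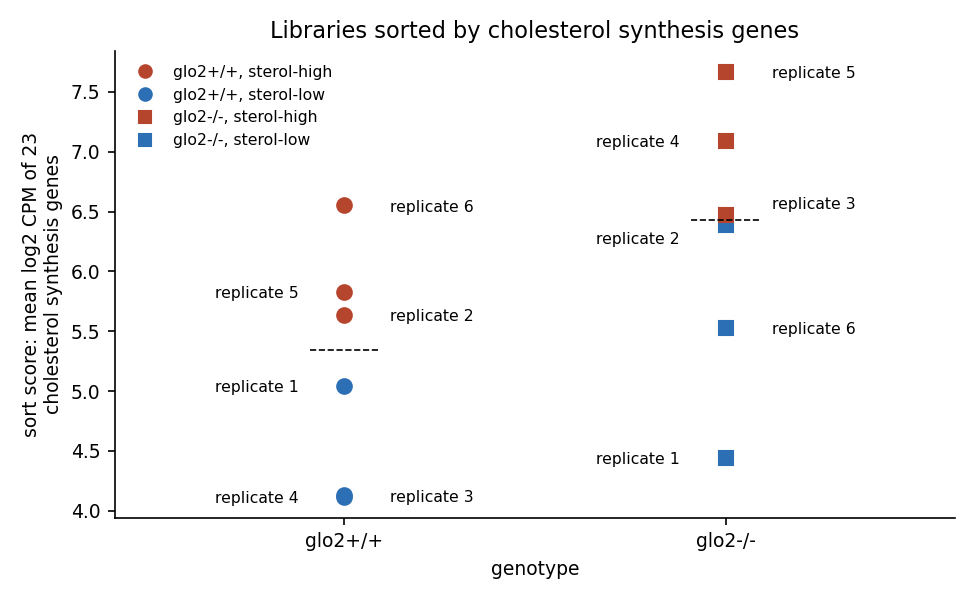
Sort score (mean log2 CPM of 23 cholesterol synthesis genes, vertical axis) of the 12 libraries by genotype (horizontal axis), each point a library, with dashed lines midway between the last sterol-high and first sterol-low library. The glo2-/- line runs through a gap of 0.09 and the glo2+/+ line through a gap of 0.59.

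Library totals lay between 17433960 and 18465485 estimated counts. Liver identity held in all libraries: 19 hepatocyte markers of secretion and metabolism summed to 116800 to 188700 CPM in the sterol-high and 111600 to 193100 CPM in the sterol-low group. Exocrine pancreas markers, which come from tissue beside the liver, summed to 249.4 to 5503 CPM in the sterol-high and 43.7 to 11350 CPM in the sterol-low group. They were highest in glo2-/- replicate 1 (sterol-low), glo2-/- replicate 5 and glo2+/+ replicate 6 (both sterol-high). The last 2 also had the highest sort score of their genotype (7.67 and 6.55). Leaving out these 3 libraries therefore also takes out the top of the sort. Another fit kept all 12 libraries and added the mean log2 CPM of these markers as a term, the pancreas covariate. The median Spearman correlation between libraries was 0.944 within and 0.938 between the groups.

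Outside the pathway, 10 of 15253 tested genes passed an adjusted p of 0.05 between the groups (edgeR quasi-likelihood test with genotype as a term, Benjamini-Hochberg over all tested genes). Of these 7 rose in sterol-high liver, 0.0459% of the genes tested, and 3 fell, 0.0197%. At an unadjusted p under 0.05 there were 991 higher genes (6.5%) and 1049 lower genes (6.88%), 13.4% of all where 5% is the nominal share. The median log2 fold change of all these genes was -0.02, and 47.2% of them lay above 0. Counts of positive or negative members in the lists below are to be read against that share. A p here measures association with the sort in the same libraries and not the effect of a treatment. In whole liver, fewer cells of a type and less RNA per cell cannot be told apart.

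The low-density lipoprotein receptor copy ldlrb, which takes up lipoprotein cholesterol, showed the largest fold change among the 7 genes that rose. It ran from 9.29 to 42.4 CPM in the sterol-high group (median 20.2) and from 1.53 to 8.77 CPM in the sterol-low group (median 3.06). All 6 sterol-high libraries lay above all 6 sterol-low libraries. It rose by a log2 fold change of 2.33 with an SE of 0.37 (edgeR adjusted p = 0.0496), with 2.44 in glo2+/+ and 2.24 in glo2-/- as differences of mean log2 CPM.

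The other risers had smaller changes and the same edgeR adjusted p of 0.0496. The beta-tubulin tubb2b ran from 104.7 to 219.9 CPM (median 161.8) against 38.7 to 103.4 CPM (median 84.2), without overlap, at a log2 fold change of 1.11 (SE 0.17). PTGES3 (ENSDARG00000089626), the p23 co-chaperone of Hsp90, ran from 20.5 to 51.6 CPM against 13.7 to 25.2 CPM, at 0.93 (SE 0.15), with 5 of 6 sterol-high libraries above all sterol-low ones. The mitochondrial protease lonp1 ran from 47.99 to 77.9 CPM against 30.9 to 42.6 CPM without overlap, at 0.74 (SE 0.12).

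The splicing factor sart3 ran narrowly, with 20.3 to 22.3 CPM in sterol-high and 9.98 to 14.6 CPM in sterol-low liver (log2 fold change 0.69, SE 0.11). The nucleolar GTPase gnl3l ran from 18.4 to 30.5 CPM against 10.04 to 18.9 CPM (0.76, SE 0.11), and a gene known only by a clone name from 30.1 to 39.6 CPM against 18.79 to 25.5 CPM (0.67, SE 0.10). Of these, sart3 and the clone-named gene did not overlap between the groups, and for gnl3l 5 of 6 sterol-high libraries stood above.

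Among the 3 genes that fell, creb3l3l, a relative of the liver transcription factor CREB-H that is anchored in the endoplasmic reticulum, was the most abundant. It ran from 22.5 to 29.5 CPM in the sterol-high group (median 25.9) and from 36.9 to 55.0 CPM in the sterol-low group (median 46.9), without overlap. Its log2 fold change came to -0.84 with an SE of 0.12 (edgeR adjusted p = 0.0496).

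CHRM2 (ENSDARG00000098612), named as a muscarinic acetylcholine receptor, had 0 counts in all 6 sterol-high libraries. Each sterol-low library had 23 to 49 counts, 215 in all, in glo2+/+ and glo2-/- liver alike. Its level was at least 72.3-fold lower in the sterol-high group, taking 3 counts over the group as the floor (edgeR adjusted p = 0.00322). It was the 1 gene with 0 counts in one group and at least 10 in every library of the other. This gene was named after its values were seen, since its average was under the log2 CPM of 2 that the rule for named genes asked for. The same holds for si:ch211-209l18.8, which fell to 0.318 to 0.814 CPM from 0.810 to 8.02 CPM, at -2.92 on the log2 scale with an SE of 0.40 (edgeR adjusted p = 0.0496). Its glo2+/+ replicate 4 lay within the sterol-high range, and the other sterol-low libraries stood above it.

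**Figure D2:**
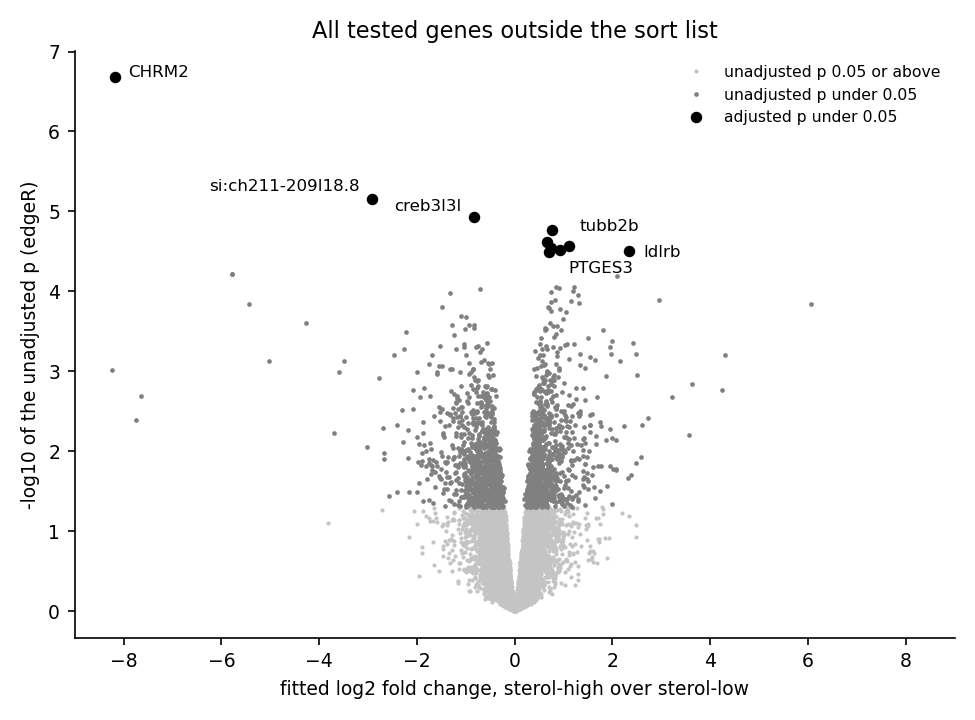
Fitted log2 fold change between sterol-high and sterol-low libraries (horizontal axis) against -log10 of the unadjusted edgeR p (vertical axis) for 15253 genes outside the sort list, each point a gene. The 10 black points passed an adjusted p of 0.05. CHRM2 at the upper left has 0 counts in every sterol-high library, so its fitted value depends on the default prior count of the edgeR fit.

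Apart from CHRM2 the calls lay close to the threshold. With any library other than glo2+/+ replicate 4 left out, 1 or 2 genes passed, CHRM2 among them each time, and without glo2+/+ replicate 4 there were 30, of which 9 were among the 10. CHRM2 passed in 21 of 26 alternative fits, and the fits it missed included those of each genotype alone, without the 3 libraries richest in pancreas markers and with the sort score entered as a number. DESeq2 called 399 genes, the 10 included, and all 10 kept their direction in every fit in which they were tested.

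Without overlap between the groups stood 69 higher genes (0.452%) and 47 lower ones (0.308%). Without overlap inside each genotype stood 172 higher (1.13%) and 136 lower ones (0.892%). No gene had a high-low difference that differed between the genotypes past an adjusted p of 0.05 (edgeR interaction term). At an unadjusted p under 0.05 there were 561, sort genes included, which is less than the nominal 5% of the genes tested. DESeq2 gave 3 at the adjusted and 630 at the unadjusted threshold. The adjusted edgeR count was 5 without glo2+/+ replicate 1, and 2 without glo2+/+ replicate 6 or glo2-/- replicate 6. The targeted gene, hagh, had 91.5 to 104.9 CPM in the glo2+/+ and 76.1 to 88.2 CPM in the glo2-/- libraries. By the sort it stood at 85.8 ± 8.70 CPM in sterol-high and 90.4 ± 8.14 CPM in sterol-low liver (SD, n = 6 each, log2 fold change -0.08, SE 0.09).

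Sterol uptake and feedback genes did not follow the pathway as a block. Of 25 tested members ldlrb passed, 5 were higher and 3 lower at an unadjusted p under 0.05 (20% and 12%, against 6.5% and 6.88% of all genes), and the median log2 fold change was 0.07 against -0.02. The count of 5 higher was 3 without the 3 libraries richest in pancreas markers and 7 with the pancreas covariate. The list had been chosen with earlier results of these data known. insig1, which retains SCAP when sterol is plentiful and is itself driven by SREBP2 in mammals, ran from 53.7 to 177.0 CPM (median 98.6) against 11.97 to 90.3 CPM (median 38.8). It had 4 sterol-high libraries above all sterol-low ones and a log2 fold change of 1.32 (SE 0.37, edgeR adjusted p = 0.159). With the sort score entered as a number, insig1 and ldlrb both passed (edgeR adjusted p = 0.000302 and 0.000164).

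The other LDL receptor copy, ldlra, was far more abundant and overlapped widely, with 123.7 to 577.3 CPM (median 172.0) against 132.1 to 424.1 CPM (median 146.8). Its log2 fold change was 0.31 (SE 0.44), turning to -0.15 without glo2-/- replicate 4 and to -0.48 in glo2+/+ libraries alone. The difference between ldlra and ldlrb was not tested. The SREBP genes themselves had positive values that did not pass, 0.54 for srebf2 (SE 0.28) and 0.67 for srebf1 (SE 0.34), which in mammals chiefly serves fatty acid synthesis. stard4, a cytosolic sterol carrier, was at 0.07 (SE 0.15), and npc1l1, which takes up sterol at the bile canaliculus and gut surface in mammals, at 0.45 (SE 0.24).

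Proteins that process SREBP or move sterol inside the cell included members with negative values. mbtps2, the site-2 protease that frees SREBP, ran from 11.9 to 16.1 CPM against 17.3 to 23.2 CPM without overlap (at -0.52, SE 0.12, edgeR adjusted p = 0.109). npc1, the lysosomal sterol exporter, was at -0.38 (SE 0.14) and insig2 at -0.46 (SE 0.19), while tmem97, an SREBP2-driven endoplasmic reticulum protein in mammals, was at 0.80 (SE 0.24). The naming rule took the member with the smallest p of each list and a fixed set of genes; the members named beside these, here and for the lists that follow, were chosen after their values were seen.

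**Figure D3:**
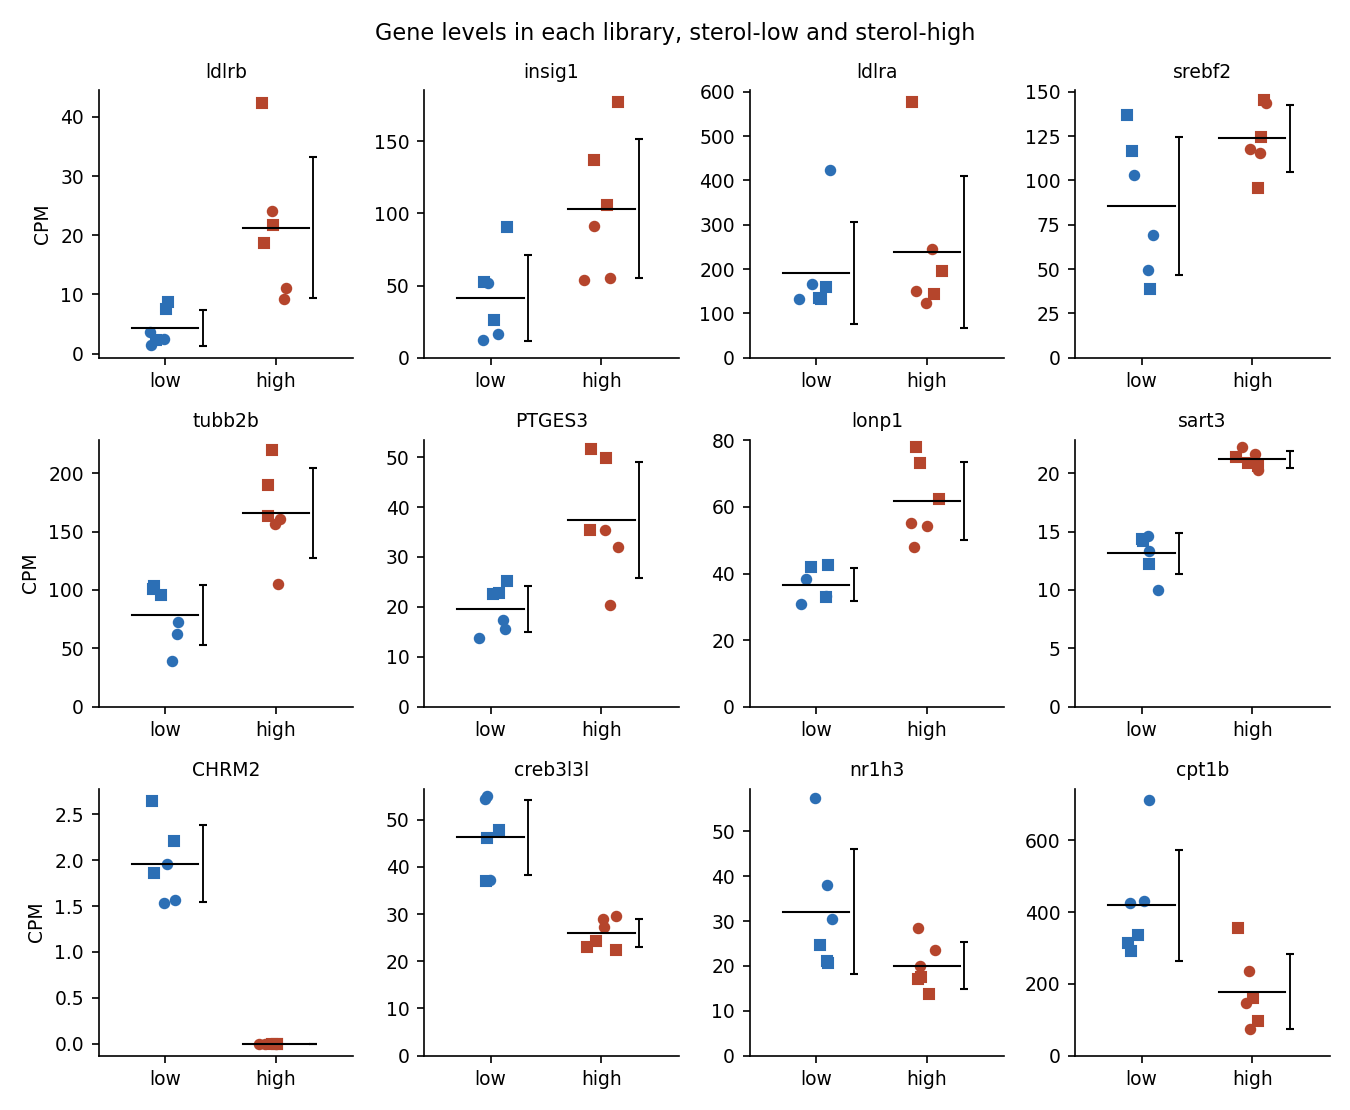
CPM (vertical axis, linear, from 0) of 12 genes in the sterol-low and sterol-high libraries (horizontal axis), circles for glo2+/+ and squares for glo2-/-, with the mean as a line and the SD as a bar beside it (n = 6 each). Groups do not overlap for ldlrb, tubb2b, lonp1, sart3, CHRM2 and creb3l3l, and overlap for the other 6 genes, with ldlra at 577.3 CPM in a sterol-high and 424.1 CPM in a sterol-low library.

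Most genes of the list of sterol export and LXR lay on the lower side. Of 19 tested members 15 had a negative log2 fold change (median -0.20), 3 members were lower at an unadjusted p under 0.05 and 0 higher (15.8% and 0%, against 6.88% and 6.5% of all genes), and none passed the adjusted p. The count of 3 was 1 without the 3 libraries richest in pancreas markers and 3 with the pancreas covariate. nr1h3, the LXR receptor, ran from 13.8 to 28.5 CPM (median 18.7) against 20.7 to 57.4 CPM (median 27.7), with a log2 fold change of -0.64 (SE 0.16, edgeR adjusted p = 0.138). ABCA1 (ENSDARG00000074635), which loads cholesterol onto apolipoprotein A-I, was at -0.73 (SE 0.30), with 1 library, the sterol-low glo2+/+ replicate 1, at 284.9 CPM and the next at 132.3 CPM. soat2, which esterifies cholesterol, was at -1.20 (SE 0.44). The canalicular exporters abcg5 and abcg8 were at -0.07 (SE 0.13) and -0.20 (SE 0.15), the latter at the median of the list.

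Bile salt genes had 15 of 23 negative values (median -0.19), with 4 lower at an unadjusted p under 0.05 and 0 higher (17.4% and 0%, against 6.88% and 6.5% of all genes). The count of 4 was 2 without glo2+/+ replicate 1, 5 or 6 or glo2-/- replicate 5 in turn. It was 1 without the 3 libraries richest in pancreas markers and 2 with the pancreas covariate. CYP27A1 (ENSDARG00000055159), the sterol 27-hydroxylase, ran from 6.22 to 9.76 CPM against 9.79 to 14.4 CPM, just without overlap, at -0.56 (SE 0.15, edgeR adjusted p = 0.146). The bile acid receptor nr1h4 was at -0.31 (SE 0.14) and the exporter abcc2 at -0.33 (SE 0.14). cyp7a1, which starts the classical route, had too few counts in most libraries to be tested: 17 summed over the sterol-high and 209 over the sterol-low libraries, 180 of them in glo2+/+ replicate 1. NR0B2, the bile acid-induced corepressor SHP, was at -0.92 (SE 0.52) with levels under 10 CPM.

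Of the apolipoproteins that make up most of the secreted lipoprotein, apoa1b and apobb.1 had values near 0. For apoeb the value was negative, with a 95% interval from -1.11 to 0.42. apoa1b ran from 81370 to 180300 CPM against 95110 to 160700 CPM (log2 fold change 0.06, SE 0.21), apobb.1 was at -0.01 (SE 0.18) and apoeb at -0.34 (SE 0.34). Of 18 members 15 were negative with a median of -0.20, and 3 were lower at an unadjusted p under 0.05 (16.7%, against 6.88% of all genes). One of the 3, apoa4b.1, also stands among the intestine markers, 9 of 10 of which were negative with a median of -0.33, and their part in the apolipoprotein values was not tested. apol1 had the smallest p, at -1.38 (SE 0.38, edgeR adjusted p = 0.158) and a level of 1.18 to 3.86 CPM against 2.53 to 13.04 CPM. The lipoprotein lipase relative lipg, named after its values were seen, ran from 6.66 to 32.8 CPM against 1.73 to 7.41 CPM, at 2.09 (SE 0.36, edgeR adjusted p = 0.0695).

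Fatty acid synthesis shares acetyl-CoA and NADPH with sterol synthesis. Of 35 tested members 3 were higher and 1 lower at an unadjusted p under 0.05 (8.57% and 2.86%), near the background of 6.5% and 6.88%, with a median of 0.07. The count of 3 higher was 5 without glo2-/- replicate 2 or glo2+/+ replicate 4. ACLY (ENSDARG00000099079), which makes cytosolic acetyl-CoA from citrate, ran from 40.9 to 172.6 CPM (median 60.9) against 23.2 to 56.7 CPM (median 38.4), at 1.05 (SE 0.30, edgeR adjusted p = 0.163), and passed with the sort score entered as a number (edgeR adjusted p = 0.0234). The other ACLY copy (ENSDARG00000055652) stayed under 3 CPM. The fatty acid synthase fasn was at 0.83 (SE 0.49) and acetyl-CoA carboxylase acaca at 0.41 (SE 0.38), each with wide overlap: fasn ran from 352.6 to 713.1 CPM against 48.8 to 782.4 CPM. The desaturase scd had 83.97 CPM in 1 sterol-low library and 7.03 CPM or less in every sterol-high one (-1.17, SE 1.496). Without glo2-/- replicate 2 the value for scd was 1.36. The acyltransferase agpat2 had the smallest p of the list, at 0.75 (SE 0.20, edgeR adjusted p = 0.146). In the pentose phosphate pathway, which supplies NADPH, pgd was at 1.02 (SE 0.29, edgeR adjusted p = 0.159), and was the 1 of 9 members at an unadjusted p under 0.05.

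Fatty acid oxidation genes stood lower in sterol-high liver more often than higher: 8 of 42 against 1 at an unadjusted p under 0.05 (19% and 2.38%, against 6.88% and 6.5% of all genes), with a median of -0.10. cpt1b, a carnitine palmitoyltransferase that admits fatty acids to mitochondria, ran from 75.0 to 356.8 CPM (median 154.4) against 292.6 to 712.2 CPM (median 380.4), and 5 of 6 sterol-high libraries lay below all sterol-low ones (log2 fold change -1.20, SE 0.37, edgeR adjusted p = 0.185). CRAT (ENSDARG00000040248), the carnitine acetyltransferase, was at -0.57 (SE 0.14, edgeR adjusted p = 0.132) and hadhaa, of the trifunctional enzyme, at -0.66 (SE 0.22). mlycd, which removes malonyl-CoA and was named after its values were seen, was at -1.09 (SE 0.21, edgeR adjusted p = 0.081). The count of 8 was 4 without glo2+/+ replicate 4, glo2-/- replicate 5 or glo2+/+ replicate 6 in turn. It was 2 without the 3 libraries richest in pancreas markers and 5 with the pancreas covariate.

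Of the functional lists, that of heat shock proteins and their partners, mostly cytosolic chaperones but with the mitochondrial hspd1 and hspe1, had the largest share on the higher side. Of 38 tested members 17 were higher and 1 lower at an unadjusted p under 0.05 (44.7% and 2.63%, against 6.5% and 6.88% of all genes, edgeR), with a median log2 fold change of 0.33 against -0.02 for all genes, and none passed the adjusted p. stip1, which links Hsp70 with Hsp90, ran from 67.8 to 148.4 CPM (median 108.7) against 38.3 to 87.1 CPM (median 54.5), at 0.93 (SE 0.18, edgeR adjusted p = 0.0741). The mitochondrial chaperonin hspd1 ran from 254.9 to 450.4 CPM against 171.0 to 256.8 CPM, at 0.61 (SE 0.12, edgeR adjusted p = 0.0851). In both genes 5 of 6 sterol-high libraries lay above all sterol-low ones.

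The stress-inducible Hsp70 genes had larger and more scattered values. hsp70.3 ran from 20.5 to 712.9 CPM (median 172.4) against 0.393 to 44.6 CPM (median 8.03), at a log2 fold change of 4.30 (SE 0.95, edgeR adjusted p = 0.102). hsp70.1 was at 3.23 (SE 0.84) and hsp70l at 2.07 (SE 0.76), the latter with 10.02 to 145.9 CPM against 0.953 to 24.3 CPM. HSP90AA1 was at 2.58 (SE 0.88) and HSPA4 (ENSDARG00000004754) at 1.205 (SE 0.26). hsf2, a heat shock factor, was the lower member, at -0.75 (SE 0.25). The count of 17 was 9 without the 3 libraries richest in pancreas markers, 6 in glo2+/+ alone and 15 in glo2-/- alone, fits with fewer samples. With the pancreas covariate and all 12 libraries it was 14. Summed over the list, the level was 7740 to 9664 CPM (median 8537) in the sterol-high libraries. In the sterol-low libraries it was 5813 to 11330 CPM (median 7146), so the highest sum was that of a sterol-low library.

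Folding genes of the endoplasmic reticulum, where the sterol sensor also resides, were likewise on the higher side. Of 44 tested members 18 were higher and 1 lower at an unadjusted p under 0.05 (40.9% and 2.27%, against 6.5% and 6.88% of all genes, edgeR), with a median of 0.28 and none past the adjusted p. SEC61A1 (ENSDARG00000005675), of the translocation channel, ran from 94.2 to 160.4 CPM (median 152.2) against 66.7 to 110.1 CPM (median 86.8), at 0.65 (SE 0.15, edgeR adjusted p = 0.116). The stress sensor atf6, which is cleaved by the same proteases as SREBP2, ran from 67.0 to 101.5 CPM against 54.6 to 72.9 CPM, at 0.47 (SE 0.12, edgeR adjusted p = 0.132). In both genes 5 of 6 sterol-high libraries stood above all sterol-low ones.

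The main luminal chaperone hspa5 (BiP) ran from 1083 to 2429 CPM (median 1747) against 351.6 to 1513 CPM (median 1169), at 0.84 (SE 0.31, edgeR adjusted p = 0.256). pdia6 was at 0.94 (SE 0.26), manf at 0.74 (SE 0.21) and dnajc3a at 0.51 (SE 0.15). The summed level of the list was 6608 to 9587 CPM in the sterol-high and 4204 to 7319 CPM in the sterol-low libraries. Among sterol-low libraries glo2+/+ replicates 1 and 3 were lowest, at 4706 and 4204 CPM. The count of 18 was 19 without the 3 libraries richest in pancreas markers, and 8 and 10 in glo2+/+ and glo2-/- alone. With the pancreas covariate it was 18.

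Translation stress and amino acid supply genes showed less. Of 31 members 4 were higher and 1 lower at an unadjusted p under 0.05 (12.9% and 3.23%, against 6.5% and 6.88% of all genes), psph of serine synthesis having the smallest p (0.49, SE 0.16, edgeR adjusted p = 0.205). The count of 4 was 2 without glo2+/+ replicate 1 or glo2-/- replicate 2 or 5. Proteasome genes had 0 of 38 in either direction and a median of 0.03. Glutathione and Nrf2 target genes had 3 of 34 higher and 1 lower (8.82% and 2.94%), among them txnrd3 at 0.46 (SE 0.15, edgeR adjusted p = 0.215).

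**Figure D4:**
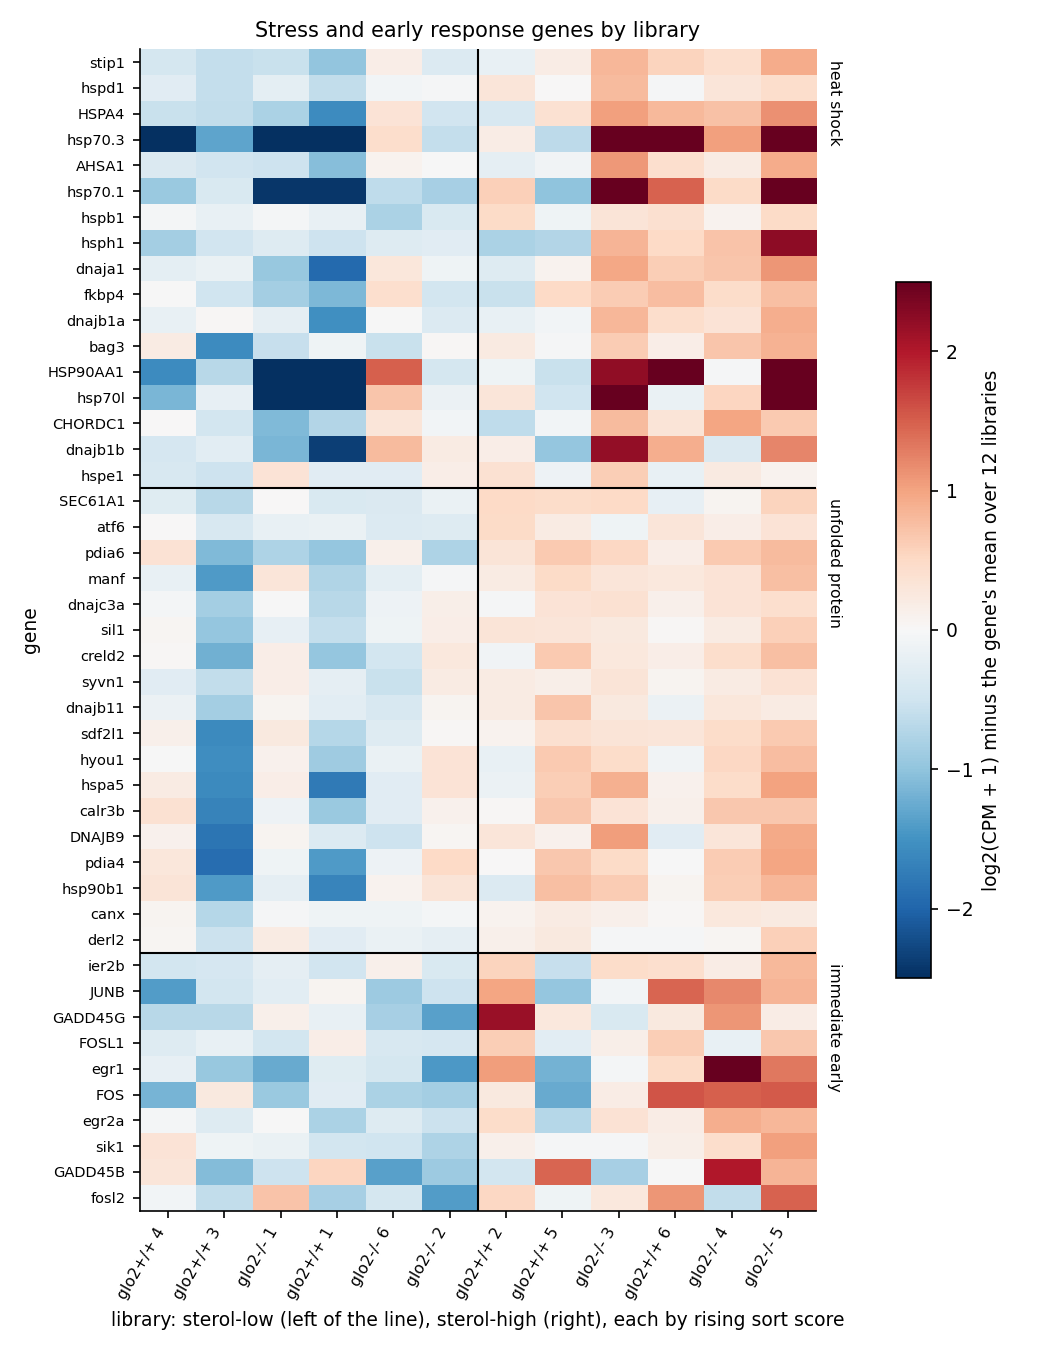
log2(CPM + 1) minus each gene's mean over the 12 libraries (colour, which stops at -2.5 and 2.5) for the members of 3 lists that were higher at an unadjusted p under 0.05 (rows, so chosen by this comparison) in each library (columns). hsp70.3, which spans 0.393 to 712.9 CPM, and HSP90AA1 are highest in glo2-/- replicates 3 and 5 and glo2+/+ replicate 6.

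Immediate early genes, which respond within minutes to growth factors, stress or handling, had 10 of 39 members higher and 1 lower at an unadjusted p under 0.05 (25.6% and 2.56%, against 6.5% and 6.88% of all genes, edgeR), with a median of 0.29. ier2b ran from 0.626 to 3.24 CPM (median 2.27) against 0.729 to 1.64 CPM (median 0.832), at 1.12 (SE 0.32, edgeR adjusted p = 0.163). FOS (ENSDARG00000031683) was at 2.08 (SE 0.65) and JUNB (ENSDARG00000074378) at 1.54 (SE 0.45). egr1 was at 2.00 (SE 0.62), with 4.07 to 86.3 CPM against 3.25 to 8.96 CPM. As differences of mean log2 CPM in glo2+/+ and glo2-/-, FOS was at 0.68 and 2.64, egr1 at 0.635 and 2.65, and JUNB at 1.28 and 1.44. Their interactions did not pass. The count of 10 was 4 without the 3 libraries richest in pancreas markers, 3 in glo2+/+ alone and 13 in glo2-/- alone. With the pancreas covariate it was 10. Part of the level of such genes can be set while tissue is taken, and this was not tested.

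Glucocorticoid targets, listed with the receptor, were divided, with 4 of 23 higher and 1 lower and a median of -0.11. The shares were 17.4% and 4.35%, against 6.5% and 6.88% of all genes. The count of 4 was 4 with the pancreas covariate and 1 with the sort score entered as a number. Of the higher members, tat and pck1 also stand in the gluconeogenesis list and cebpd in the acute phase list. sgk1, a kinase of hormonal salt transport, ran from 50.8 to 197.6 CPM (median 153.2) against 27.8 to 68.1 CPM (median 54.0), with 5 of 6 sterol-high libraries above all sterol-low ones (1.44, SE 0.33, edgeR adjusted p = 0.111). fkbp5, a target used as a gauge of the hormone, was at -0.08 (SE 0.66), with values from -0.68 without glo2-/- replicate 4 to 0.27 without glo2+/+ replicate 1. The receptor nr3c1, the lower member, was at -0.46 (SE 0.12, edgeR adjusted p = 0.152). In the clock list 1 of 37 was higher and 3 lower (2.7% and 8.11%, against 6.5% and 6.88% of all genes). The count of 3 was 9 without glo2-/- replicate 4, 1 without glo2+/+ replicate 6 and 0 without the 3 libraries richest in pancreas markers. With the pancreas covariate it was 3. Clock members included NR1D2 at -0.57 (SE 0.20) and the PER1 copies at -0.18 (ENSDARG00000012499, SE 0.21) and -0.71 (ENSDARG00000056885, SE 0.58).

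Liver transcription factors stood lower in sterol-high liver in 10 of 33 cases and higher in 2 at an unadjusted p under 0.05 (30.3% and 6.06%, against 6.88% and 6.5%), with a median of -0.16 and none past the adjusted p. nr1i2, the xenobiotic receptor PXR, ran from 3.44 to 7.32 CPM (median 6.41) against 5.81 to 15.3 CPM (median 12.6), at -0.94 (SE 0.21, edgeR adjusted p = 0.109). creb3l3a, the other CREB-H copy, ran from 21.2 to 44.8 CPM against 36.5 to 76.1 CPM, at -0.78 (SE 0.20, edgeR adjusted p = 0.134), and 5 of 6 sterol-high libraries lay below all sterol-low ones. hnf4b was at -1.18 (SE 0.31, edgeR adjusted p = 0.138).

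The higher factors were foxa3, at 0.70 (SE 0.24), and cebpa, at 1.18 (SE 0.44) with 110.4 to 441.6 CPM against 34.4 to 195.8 CPM. Of these members nr1i2, creb3l3a, nr1h3 and nr3c1 also stand in other lists. The count of 10 was 6 in each genotype alone, 7 without the 3 libraries richest in pancreas markers and 9 with the pancreas covariate. Xenobiotic cytochrome P450 genes had 5 of 37 lower and 1 higher (13.5% and 2.7%, against 6.88% and 6.5% of all genes), nr1i2 counted among them and cyp3a65 the higher one at 0.85 (SE 0.23, edgeR adjusted p = 0.153). The count of 5 lower was 2 in glo2+/+ alone and 1 in glo2-/- alone.

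**Figure D5:**
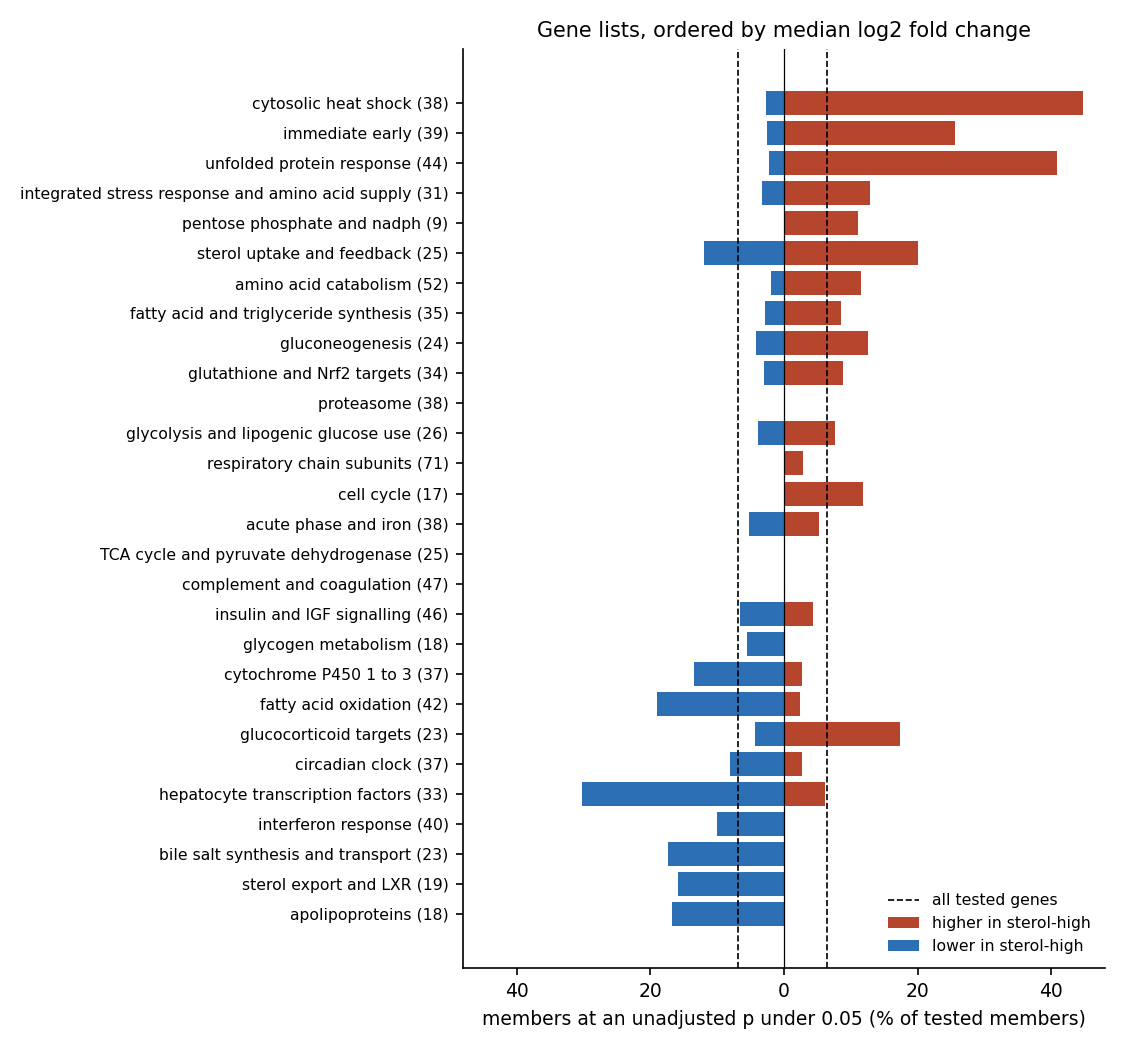
Percent of tested members (horizontal axis, number tested in brackets) of each functional gene list that were higher (right) or lower (left) in sterol-high liver at an unadjusted edgeR p under 0.05, with dashed lines at the shares of all tested genes (6.5% and 6.88%). Heat shock (44.7%) and unfolded protein (40.9%) genes reach farthest right and liver transcription factors (30.3%) farthest left.

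Carbohydrate metabolism, the subject of the series, showed little that followed the sort. Glycolysis genes had 2 of 26 higher and 1 lower (7.69% and 3.85%) and a median of 0.02, and gluconeogenesis genes 3 of 24 higher and 1 lower (12.5% and 4.17%). The shares over all genes were 6.5% and 6.88%. Glucokinase, gck, ran from 2.32 to 1688 CPM against 78.6 to 791.4 CPM (1.29, SE 1.13). Its sign differed between the genotypes as differences of mean log2 CPM, 0.86 in glo2+/+ and -1.69 in glo2-/-, and the interaction did not pass (edgeR). On the log2(TPM + 1) scale the difference for gck was -0.24 (limma). pck1, which makes phosphoenolpyruvate, ran from 241.0 to 2077 CPM (median 1060) against 129.5 to 824.5 CPM (median 312.0), at 1.498 (SE 0.58, edgeR adjusted p = 0.278). Its differences of mean log2 CPM were 0.43 in glo2+/+ and 2.43 in glo2-/-, and its interaction did not pass either. The liver pyruvate kinase pklr was at 0.26 (SE 0.30).

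GPI (ENSDARG00000103826), a low-abundance glucose phosphate isomerase copy, had the smallest p of the glycolysis list, at 1.94 (SE 0.58, edgeR adjusted p = 0.174) and 0.566 to 4.79 CPM against 0.144 to 2.79 CPM. In glycogen metabolism 0 of 18 were higher and 1 lower (5.56%), ppp1r3b at -0.37 (SE 0.14). Insulin and IGF signalling had 2 of 46 higher and 3 lower (4.35% and 6.52%), with IGFBP5 (ENSDARG00000025348) at -0.55 (SE 0.13, edgeR adjusted p = 0.116) and IGFBP1 at -0.23 (SE 0.51). The count of 3 lower was 11 without glo2-/- replicate 4.

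TCA cycle genes had 0 of 25 in either direction and a median of -0.01, with citrate synthase, cs, at 0.27 (SE 0.14). Respiratory chain subunits had 2 of 71 higher (2.82%), among them cox6a1 at 0.82 (SE 0.25, edgeR adjusted p = 0.181). Amino acid catabolism had 6 of 52 higher and 1 lower (11.5% and 1.92%, against 6.5% and 6.88% of all genes). CTH (ENSDARG00000074301), which makes cysteine from cystathionine, had the smallest p there, with 119.8 to 185.3 CPM against 61.0 to 125.2 CPM (0.67, SE 0.18, edgeR adjusted p = 0.152). The count of 6 higher was 6 in glo2+/+ alone and 1 in glo2-/- alone.

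Secreted plasma proteins did not follow the sort. Complement and coagulation had 0 of 47 members in either direction at an unadjusted p under 0.05 and a median of -0.03, and c6.1 had the smallest p (1.32, SE 0.69, edgeR adjusted p = 0.437). Acute phase and iron genes had 2 of 38 in each direction (5.26%), with cebpd at 0.52 (SE 0.15, edgeR adjusted p = 0.16). Among cell cycle genes 2 of 17 were higher (11.8%, against 6.5% of all genes), ccnd1 at 0.64 (SE 0.19, edgeR adjusted p = 0.167).

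Interferon response genes were mostly negative, 31 of 40, with a median of -0.18, 4 lower at an unadjusted p under 0.05 and 0 higher (10% and 0%, against 6.88% and 6.5% of all genes), and mxa, an antiviral GTPase, at -0.92 (SE 0.31, edgeR adjusted p = 0.217). The count of 4 was 2 without glo2+/+ replicate 1 or 5 or glo2-/- replicate 6, and 8 without glo2-/- replicate 1. Macrophage markers were negative in 19 of 21 cases with a median of -0.23, and 1, marco, had an unadjusted p under 0.05 (-0.62, SE 0.26). They summed to 150.6 to 253.1 CPM in the sterol-high and 118.9 to 369.7 CPM in the sterol-low group, so the groups overlapped throughout. Their part in the interferon values was not tested.

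Markers of other cells and organs overlapped between the groups. Exocrine pancreas markers had 0 of 30 in either direction and a median of -0.05. Their content was uneven all the same. Their mean log2 CPM was 3.86 (SD 1.65) in sterol-high and 2.57 (SD 2.97) in sterol-low libraries, with median sums of 1290 and 683.2 CPM. The lowest sums were those of glo2+/+ replicate 4 (43.7 CPM), glo2-/- replicate 6 (107.6 CPM) and glo2-/- replicate 2 (140 CPM), all sterol-low. The highest, 11350 CPM in glo2-/- replicate 1, was sterol-low as well. Endothelial markers summed to 177.7 to 216.5 CPM against 190.3 to 205.0 CPM, with 1 of 25 higher and 3 lower (4% and 12%, against 6.5% and 6.88% of all genes), and 1 lower without any 1 of glo2+/+ replicates 1 and 5 and glo2-/- replicates 1, 2, 3 and 4. Bile duct markers summed to 1770 to 2089 CPM against 1414 to 2017 CPM (1 of 15 in each direction). Of these markers 11 were negative, with a median of -0.12, while krt8, a large part of the sum, averaged 901 against 666.8 CPM. Stellate cell and fibroblast markers summed to 4439 to 7966 CPM against 5687 to 9373 CPM (1 of 32 higher, 3 lower). The count of 3 lower was 1 without glo2+/+ replicate 2, 5 or 6 in turn, and 5 without glo2-/- replicate 6. Most of the stellate and fibroblast sum was FN1 (ENSDARG00000006526), with a mean of 5155 CPM in sterol-high and 7136 CPM in sterol-low liver. That sum therefore says little about the other members. Erythrocyte and thrombocyte markers had 2 of 19 higher (10.5%), and summed to 226.3 to 1105 CPM against 236.1 to 707.2 CPM. Vitellogenin and oestrogen markers, which mark female liver, summed to 377.5 to 739.2 CPM against 383.4 to 659.5 CPM (0 of 13 higher, 1 lower). Neutrophil, muscle and adipocyte markers had 0 in either direction of 7, 14 and 7, lymphocyte markers 1 of 8 higher, and kidney markers 1 lower of 6. Intestine markers had 1 lower of 10 and 9 negative, with a median of -0.33 and sums of 578.0 to 901.9 CPM against 673.6 to 1324 CPM. Most of the intestine sum was apoa4b.1, also an apolipoprotein list member, with a mean of 660.6 CPM in sterol-high and 1011 CPM in sterol-low liver. No germline marker of 22 matched was tested. Endocrine pancreas markers had 3 tested members, with sums of 0.498 to 6.31 CPM against 0.325 to 58.5 CPM.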

How the data were processed

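The data are 12 RNA-seq libraries of adult zebrafish liver, 6 per genotype. The authors deposited estimated counts and TPM per gene; per the submitters' processing notes, kallisto 0.4.6 made them from reads that Trim Galore 0.6.4 had trimmed, and the build named is GRCz11. Not given in the sources used here: the annotation release and how transcripts were summed to genes. Because kallisto divides reads between similar transcripts by likelihood, 19.1% of the estimated counts were not whole (tolerance 0.001); they were rounded for the count models. Totals were 17433960 to 18465485 per library. Of 32520 gene IDs, 29201 had a name, and 74 of 1460 list entries matched none.

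Groups were those of the sort by cholesterol synthesis genes within genotype. The members and lists were chosen with earlier results of these data known. Genes of the sort list were described and not tested. Genes kept by filterByExpr (15276, of which 15253 outside the sort list) were fitted with edgeR 4.0.16 in R 4.3.3 (TMM, quasi-likelihood test, terms genotype and sort group), with Benjamini-Hochberg adjustment over all tested genes and a threshold of 0.05. Values of log2 CPM took a prior count of 2, and the fit took the default of edgeR. Fitted log2 fold changes weigh libraries by the count model and can differ from the differences of mean log2 CPM. The models were tested on simulated data. Named were up to 15 genes per direction that passed and whose average log2 CPM was 2 or more, with at most 2 of clone-based names; per functional list up to 3 members past the threshold or the 1 with the smallest p; per marker list up to 2 past the threshold; a fixed set of genes; and the 6 sort genes. Others are said to be chosen after their values were seen.

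Alternatives were DESeq2 1.42.0 and its size factors, no filter and a filter of 50 counts in 6 libraries, limma 3.58.1 on log2(TPM + 1) and log2(TPM + 0.1), limma-voom with sample weights, no genotype term, a replicate block, the score as a number, a pancreas covariate, each genotype alone and each library left out; leaving out the dividing-line pair or the 3 pancreas-richest libraries was chosen after seeing the data. No 2 of the 12 libraries were alike within sampling noise (smallest chi-square per degree of freedom 33.2 over 66 pairs). Each SE came from the quasi-likelihood F and carries the spread among libraries as well as counting error. The floor of 3 counts covers counting error only. Promoter and protein sequences were not used here, and a few genes of the lists are not reported here.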

Additional observations from a re-analysis of the deposited data

Results flagged for a closer look

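In 12 of 276 sets of 6 libraries, 1 library stood farther from the nearest other than Dixon's 95% limit allows, where chance alone gives about 14. In the sterol-low group glo2+/+ replicate 1 was high in log2 CPM for ABCA1 (8.155, the others 5.972 to 6.715), ldlra (8.729, others 7.047 to 7.383) and atg4c, an autophagy protease (3.375, others 2.775 to 2.992). The same library was high in the mean log2 CPM of the neutrophil markers (1.742, others -0.324 to 0.167) and of the kidney and interrenal markers (4.57, others 3.739 to 3.926). Of the other sterol-low libraries, glo2-/- replicate 1 was low for apobb.1 (12.595, others 13.017 to 13.267), glo2+/+ replicate 4 was low for si:ch211-209l18.8 (-0.12, others 2.013 to 3.024), and glo2+/+ replicate 3 was high in the mean of the hepatocyte secreted and metabolic markers (11.601, others 10.914 to 11.142).

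In the sterol-high group glo2+/+ replicate 2 was high for cox6a1 (7.514, others 6.748 to 7.029), for PER1 (ENSDARG00000012499; 5.966, others 5.081 to 5.353) and in the mean of the vitellogenin and oestrogen markers (4.428, others 2.053 to 2.685). In the same group glo2-/- replicate 3 was low for GPI (ENSDARG00000103826; -0.565, others 1.235 to 2.293).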

How the results depend on the processing

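The counts of calls lay near the threshold and moved with most choices. Higher and lower genes numbered 14 and 6 with no filter, 238 and 161 with DESeq2, 23 and 3 with the sort score as a number, 11 and 3 with voom weights, and 0 and 4 in glo2-/- alone. They were 0 and 1 with limma on log2(TPM + 1) or log2(TPM + 0.1), without the genotype term, with the pancreas covariate and without the dividing-line pair, and 0 and 0 with 50 counts in 6 libraries, in glo2+/+ alone and without the 3 pancreas-richest libraries. Of the 10 main calls, 1 was among the 26 with the score as a number and 1 among the 4 in glo2-/- alone. With no filter 9 of the 10 were called again, and with voom weights 9. With each library left out, higher genes ran from 0 to 15, lower from 1 to 15 and interaction calls from 0 to 5. At an unadjusted p under 0.05, higher genes fell to 521 and 638 in glo2+/+ and glo2-/- alone, and lower genes to 577 and 540, to 662 and 626 with limma on log2(TPM + 1) and log2(TPM + 0.1), and to 680 without the pancreas-richest libraries. The cause of these shifts was not tested, beyond the fewer samples of some fits.

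Replicate numbers showed no pairing as seen from the glo2+/+ libraries. Same-number deviations correlated at -0.282 to 0.205. No glo2+/+ library correlated best with the glo2-/- library of its own number, and the reverse was not examined. The replicate block left 0 higher and 0 lower calls, so that it ended all 10 (CHRM2 at an edgeR adjusted p of 0.353). In that fit replicates 1 and 5 gave no information on the sort, since both libraries of each number lay in the same group. The part of this in the lost calls was not tested. The block fit gave abcg5 0.011, fkbp5 0.54, IGFBP1 0.0086, PER1 0.063 (ENSDARG00000012499) and 0.21 (ENSDARG00000056885), and scd 0.59, each turned in sign.

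The log2 fold changes that turned sign otherwise belonged to genes that did not pass. With the score as a number they were, per SD of the score (1.152), 0.00028 for abcg5, -0.0065 for apoa1b and 0.036 for apobb.1. On the same scale, which is not that of a group difference, IGFBP1 was at 0.046, scd at 1.395 and stard4 at -0.059. With limma on log2(TPM + 1) and log2(TPM + 0.1) the turned values were -0.0015 and -0.0096 for ACLY (ENSDARG00000055652) and 0.034 and 0.037 for fkbp5. They were -0.24 and -0.37 for gck, 0.058 and 0.068 for IGFBP1, and on the second scale 0.59 for scd. Voom weights gave -0.035 for apoa1b, 0.17 for fkbp5, -0.68 for gck and 0.018 for IGFBP1. In glo2+/+ alone abcg5 was at 0.032, ACLY (ENSDARG00000055652) at -0.018, ldlra at -0.48 and scd at 1.49, and in glo2-/- alone apobb.1 at 0.025 and fkbp5 at 0.94. Without the pancreas-richest libraries apobb.1 was at 0.021, apoeb at 0.018 and fkbp5 at 0.61, without the dividing-line pair apobb.1 at 0.051 and scd at 1.28, with the pancreas covariate apobb.1 at 0.077, and without the genotype term fkbp5 at 0.071. With each library left out, abcg5 ran from -0.12 to 0.026, apoa1b from -0.11 to 0.15, apobb.1 from -0.13 to 0.077, fkbp5 from -0.68 to 0.27, IGFBP1 from -0.62 to 0.46, ldlra from -0.15 to 0.70, scd from -1.86 to 1.36 and stard4 from -0.047 to 0.15.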

Other observations

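Families taken by symbol after the values were seen add to the picture, as a description. Nucleolar and ribosome biogenesis genes had 17 of 66 members higher and 0 lower at an unadjusted p under 0.05 (25.8% and 0%, against 6.5% and 6.88% of all tested genes; median log2 fold change 0.28). The nucleolar phosphoprotein nolc1 averaged 99.9 ± 21.4 CPM in sterol-high and 52.9 ± 11.9 CPM in sterol-low liver (SD, n = 6 each; log2 fold change 0.90, edgeR adjusted p = 0.074), gnl3 (nucleostemin) was at 0.58 and the rRNA methyltransferase nop2 at 0.64. The cytosolic ribosomal proteins had 0 of 79 in either direction, and the mitochondrial ones 1 of 75 higher, mrps23 at 0.58. Autophagy genes had 0 of 25 higher and 7 lower (28%, median -0.25), with atg14 at -1.14, atg4c at -0.53 and atg101 at -0.55; none passed the edgeR adjusted p.

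Beside tubb2b, 4 further tubulins of 11 were higher at an unadjusted p under 0.05, among them tuba5 and tubb4b, both at 0.51. With tubb2b, which drew attention to the family, the share was 45.5%, against 6.5% of all tested genes. Of 10 genes of 14-3-3 proteins, adaptors that bind phosphorylated partners, 3 were higher (30%, against 6.5% of all tested genes), ywhaqa at 0.78 (edgeR adjusted p = 0.0851) and YWHAG (ENSDARG00000067626) at 1.11. Counts of these families were not repeated with libraries left out or in each genotype alone.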
